A study of Caenorhabditis elegans with 2 samples.

Results

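The regions described here were the 302 intergenic peaks of a tagged zinc finger protein, ZTF-23, on the autosomes of Caenorhabditis elegans that lay away from promoters. They were taken from the conservative combined list of 2234 regions, of which 1797 had their summit, the position of highest signal, on chromosomes I to V. A peak was kept when its summit lay in no annotated gene, not within 500 bp upstream of any gene start and not within 200 bp of a tRNA, snoRNA, snRNA or ncRNA gene. The 302 peaks made up 16.8% of the autosomal peaks (exact 95% interval 15.1 to 18.6), and the bases that meet the same rule, called eligible bases below, made up 20.2% of the autosomes. The other 1495 autosomal peaks fell into 611 with a summit in a promoter, 475 in a gene body and 409 at or within 200 bp of a small RNA gene. None of the 302 summits (0 of 302) lay inside a gene of the RefSeq annotation of the same assembly.

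Chromatin immunoprecipitation and sequencing (ChIP-seq) had been done on 2 biological replicates of 1 group, whole mid-stage embryos of strain RW12279 obtained by bleaching gravid worms, with an age of 1.5 hours per the labels. The strain carried the allele st12279[ztf-23::TY1::EGFP::3xFLAG] I, made by a CRISPR insertion at ztf-23, so that the protein was tagged with TY1, EGFP and 3xFLAG, and it was precipitated with an anti-GFP antibody, although the antibody field of the labels reads ztf-23. Chromatin was sonicated to 200 to 800 bp. No group without the tag and no input library was analysed here, the control experiment named in the labels was not used, and whole embryos mix all cell types, so a peak cannot be assigned to a cell type.

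ZTF-23 belongs to the zinc finger proteins, a large class in which small zinc-binding folds often contact DNA. The worm genome is compact, so most intergenic DNA lies close to some gene, and the chromosome arms differ from the centres in being richer in repeated DNA and poorer in essential genes. Repeats include satellites, in which a short unit is repeated head to tail, and dispersed elements, some of which resemble genes of RNA polymerase III. Such genes, the tRNA genes among them, carry their promoter inside the gene as an A box and a B box, which the factor TFIIIC binds.

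The sequences that recur below are shown first, from 50 bp before to 50 bp after the summit on the plus strand of ce11, with peaks numbered by signal rank among the 302. Peaks 1 and 2 are the strongest and belong to no array or family, although 23.8% of the window of peak 2 is masked. Peaks 3 and 5 are satellites of a 26-bp unit and peak 4 is a satellite of a 25-bp unit, and capitals mark the word CTAACTTTGGA or AGTAAAATATA, or its complement. Peaks 8 and 13 belong to a dispersed family and capitals mark ACGAAAAGGGG or its complement. Peaks 10, 56 and 169 carry tRNA-like words, and capitals mark the A box word GGCNNAGTG and the B box word GTTCGANTC. The B-box-like word of peak 10, which differs from the B box word at 1 position and runs past the window, is therefore in lower case.
peak 1, chrIII:8043910-8044010: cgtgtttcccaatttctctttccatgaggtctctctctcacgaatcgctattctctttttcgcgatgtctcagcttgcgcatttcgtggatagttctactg
peak 2, chrIII:8412105-8412205: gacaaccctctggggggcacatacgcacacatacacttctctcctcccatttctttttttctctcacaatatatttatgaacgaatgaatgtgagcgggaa
peak 3, chrII:5097591-5097691: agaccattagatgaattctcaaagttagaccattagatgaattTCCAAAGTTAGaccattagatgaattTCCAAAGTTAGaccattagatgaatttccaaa
peak 5, chrV:5075490-5075590: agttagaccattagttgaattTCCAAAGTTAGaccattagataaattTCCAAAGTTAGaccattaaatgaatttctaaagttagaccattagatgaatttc
peak 4, chrIII:3335090-3335190: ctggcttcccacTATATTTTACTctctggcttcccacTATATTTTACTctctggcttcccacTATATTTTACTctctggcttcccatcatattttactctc
peak 8, chrIV:3050859-3050959: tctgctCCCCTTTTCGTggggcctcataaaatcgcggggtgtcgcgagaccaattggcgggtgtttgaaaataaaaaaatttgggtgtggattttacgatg
peak 13, chrII:11534968-11535068: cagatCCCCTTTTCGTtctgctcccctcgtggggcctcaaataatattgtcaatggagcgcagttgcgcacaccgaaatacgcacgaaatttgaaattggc
peak 10, chrV:1561336-1561436: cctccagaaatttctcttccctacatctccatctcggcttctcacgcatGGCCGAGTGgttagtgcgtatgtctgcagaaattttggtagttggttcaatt
peak 56, chrIII:9849273-9849373: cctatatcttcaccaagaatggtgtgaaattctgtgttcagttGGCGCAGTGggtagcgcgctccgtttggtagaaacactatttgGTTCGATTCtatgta
peak 169, chrIV:13504233-13504333: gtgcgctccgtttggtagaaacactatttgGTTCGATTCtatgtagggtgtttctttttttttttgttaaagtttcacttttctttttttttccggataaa

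The signal of the intergenic peaks was slightly below that of the other peaks. The top of the range was much lower than in promoter and small RNA peaks, though not lower than in gene body peaks. The signal is the authors' own value per peak, on a scale that the files do not state. Its median was 119 (95% interval 114 to 122), against 129 (126 to 133) over the other autosomal peaks, a ratio of 0.915. Promoter peaks had a median of 151 and small RNA peaks one of 161, and the gene body peaks, at 110, were the only class below the intergenic peaks. The strongest intergenic peak reached 1468, which ranked 9 among the 1797 autosomal peaks, while the strongest peak of the other classes reached 19378. The strongest gene body peak reached 821. From the 5th to the 95th percentile the intergenic peaks ranged from 42.3 to 296. The 15 peaks with a signal under 40 all overlapped another peak of the list (15 of 15), against 21 of the 287 stronger ones. In all, 36 of the 302 (11.9%) overlapped another peak and 32 overlapped another intergenic peak, so that the 302 peaks covered 286 separate stretches and are not independent observations.

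**Figure D1:**
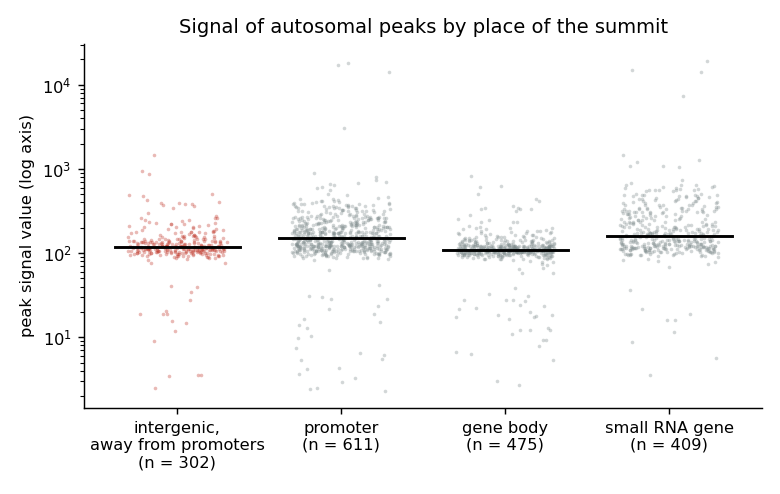
Signal value of each autosomal peak on a log axis, by the place of its summit; each point is 1 peak and the black bar is the median. The intergenic peaks have a median of 119, below promoter (151) and small RNA (161) peaks and above gene body peaks (110), and none of them comes near the highest values of the promoter and small RNA classes.

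Peak 1, the strongest, lay between the starts of the diverging genes K12H4.5 and K12H4.6, at chrIII:8043814-8044116. Its signal was 1468, and the strongest overlapping region had 647 in replicate 1 and 838 in replicate 2. Its summit was 527 bp upstream of K12H4.5, just outside the promoter window, and 1085 bp upstream of K12H4.6. Peak 2, at chrIII:8412008-8412290, had a signal of 941 (388 in replicate 1 and 567 in replicate 2). It lay 138 bp beyond the end of ZK353.9 and 6013 bp from the start of sor-1. Peak 3, at chrII:5097493-5097819, had a signal of 879 (390 and 508) and lay between the ends of C04G6.13 and C04G6.6, at 2183 and 1797 bp, with the ncRNA gene C04G6.15 at 311 bp. These 3 peaks were high in both replicates, all of them in chromosome centres, and the next peak, with 503, was well below them.

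Of the 12 remaining peaks of the strongest 15, 6 were satellites. Peaks 4, 6 and 9 (503, 477 and 398) lay on chromosome III, 1162 bp from the end of Y53G8AR.1 and in the stretch between the ends of Y54F10AL.1 and Y54F10AM.8. Peaks 7 and 14 (423 and 366) lay 853 and 112 bp beyond the end of pqn-21, a gene for a glutamine- and asparagine-rich protein, at chrI:6772997-6773188 and chrI:6773785-6773873. Peak 5 (486) lay on chromosome V, 2314 bp beyond the end of Y58A7A.3. The others were dispersed or single sequences. Peak 8 (404) lay 805 bp upstream of eel-1, which encodes a HECT-type ubiquitin ligase, and peak 13 (376) lay 123 bp beyond the end of Y62F5A.9. Peak 10 (396) lay 5690 bp upstream of cdc-25.2, a cell cycle phosphatase gene, and 8282 bp from the start of srsx-8, a chemoreceptor gene. Peak 11 (388) lay between the ends of aagr-1 and D2096.7, at 223 and 128 bp. Peak 12 (380) lay 649 bp upstream of usp-4, a gene for a ubiquitin protease, and 220 bp from the ncRNA gene H34C03.18. Peak 15 (339) lay 512 bp upstream of vps-39, which encodes a subunit of a vacuolar tethering complex, and 6 bp from an annotated pseudogene.

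Support in the single replicates was lower for intergenic peaks than for the other classes as a whole. Each replicate has a thresholded list of its own, of 752 autosomal peaks for replicate 1 and 972 for replicate 2. Of the 302 intergenic peaks, 53 (17.5%, interval 13.4 to 22.3) overlapped a peak of both lists, against 30.0% of all 1797 autosomal peaks. A further 67 overlapped a peak of 1 list, and 182 (60.3%, interval 54.5 to 65.8) overlapped neither, against 47.3% of all autosomal peaks. Both shares of the intergenic peaks had intervals that did not include the background. Within the other classes, 41.1% of promoter peaks, 45.7% of small RNA peaks and 10.1% of gene body peaks were in both lists, so that gene body peaks had less support than intergenic ones. A score of 1000, the top of the authors' scale of reproducibility, was held by 173 intergenic peaks (57.3%), against 67.8% of the other autosomal peaks.

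That support sat almost wholly in the strongest peaks. Of the 50 strongest intergenic peaks, with signals of 171 and above, 44 were in both single-replicate lists, and of the 252 after them 9 were. Being in a thresholded list depends on signal, so this order is a description. The ranked lists, with 59587 regions for replicate 1 and 58911 for replicate 2, covered 301 intergenic peaks in replicate 1 and 299 in replicate 2. The median signal there was 55.1 in replicate 1 and 65.1 in replicate 2, and the ratio of replicate 2 to replicate 1 within a peak had a median of 1.17 over 298 peaks (interval 1.11 to 1.22), against 1.19 over the other autosomal peaks. Where peaks overlap, the replicate value is that of the strongest region there and can belong to the neighbour.

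**Figure D2:**
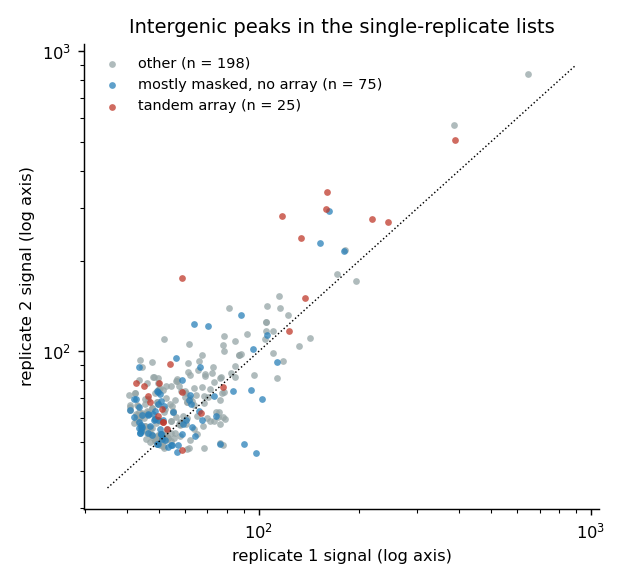
Signal of the intergenic peaks in replicate 1 (x axis) and replicate 2 (y axis), both log axes, with the dotted line at equal values; each point is 1 peak, coloured by repeat class. Most points gather around 55.1 and 65.1, and several satellite peaks (red) lie well above the line.

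**Figure D3:**
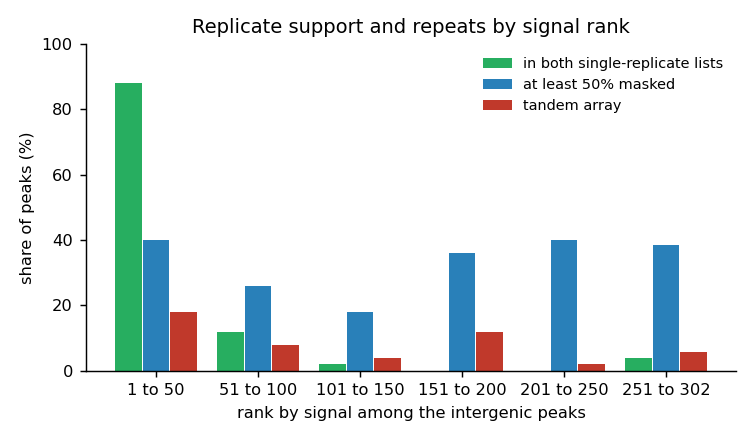
Share of intergenic peaks that overlap both single-replicate lists, that are at least 50% masked and that lie in tandem arrays, in bins of signal rank. Support in both lists is 88.0% in the first bin and 12% in the second, and the share in tandem arrays is 18.0% in the first bin.

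The intergenic peaks lay somewhat closer to coding genes than eligible bases did, and the excess sat just outside the promoter windows and at short distances beyond gene ends. The median distance to the nearest edge of a protein-coding gene was 1054 bp (interval 857 to 1249), against 1331 bp over eligible bases. Of the 302 peaks, 90 (29.8%, interval 24.7 to 35.3) were 501 to 1000 bp from the nearest coding edge, against 22.4% of eligible bases. A coding gene start was 501 to 1000 bp away from 80 of them (26.5%, interval 21.6 to 31.8), against 20.6%. At over 250 and up to 500 bp, where only gene ends can be nearest, there were 34 peaks (11.3%), against 7.10% of eligible bases, and within 250 bp of a gene end there were 25 (8.28%), against 10.7%. Far from genes the order was the other way, with 25 peaks (8.28%, interval 5.43 to 12) more than 5000 bp from any coding edge, against 9.61% of eligible bases, a difference within the interval. The intergenic gaps that held the peaks had a median length of 5374 bp, against 6060 bp over eligible bases.

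The boundary of the promoter window cut through this excess. There were 7 intergenic peaks 501 to 525 bp upstream of a gene start, with signals from 104 through a median of 183 to 339, and 6 peaks 476 to 500 bp upstream, which the rule left out, with signals from 2.92 through 106 to 203. At the other boundary, 2 intergenic peaks were 201 to 225 bp from a small RNA gene, with signals of 130 and 380, and 1 peak was 176 to 200 bp away, with 111. Several of the stronger peaks just upstream of coding genes lay near genes of known function. Peak 18 (263) was 686 bp upstream of rpa-2, for a subunit of replication protein A, but nearer, at 543 bp, to the start of the lincRNA gene M04F3.7. Peak 19 (258) was 620 bp upstream of jhdm-1 and 1485 bp upstream of set-1, genes for a histone demethylase and a histone methyltransferase. Peak 22 (244) was 624 bp upstream of wve-1, for the actin regulator WAVE, and peak 23 (243) was 889 bp upstream of cbp-1, for the histone acetyltransferase CBP. Peak 23 was nearer, at 472 bp, to the end of the ncRNA gene R10E11.12, and it overlapped another peak. Peak 29 (219) was 1200 bp upstream of ftn-1, a ferritin gene. These 5 were chosen after their values were seen, and each was in both single-replicate lists.

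On which side of a gene the peaks lay matched the eligible bases within the counting error. The nearest coding edge was a gene start for 164 peaks (54.3%, interval 48.5 to 60) and a gene end for 138, against a start for 54.0% of eligible bases. Between 2 gene starts lay 86 peaks (28.5%), against 31.9% of eligible bases, and between 2 gene ends lay 39 (12.9%), against 13.1%. Between a start and an end lay 176 (58.3%), against 54.9%, and 1 peak lay between a gene and a chromosome end. The intervals of the shares between starts and between a start and an end, 23.5 to 33.9 and 52.5 to 63.9, included the eligible share. Peaks on the start side had a median distance of 1392 bp to that start, against 1788 bp for eligible bases, and peaks on the end side one of 566 bp to that end, against 771 bp. Their signals were alike, with medians of 119 (interval 113 to 127) on the start side and 118 (113 to 124) on the end side.

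**Figure D4:**
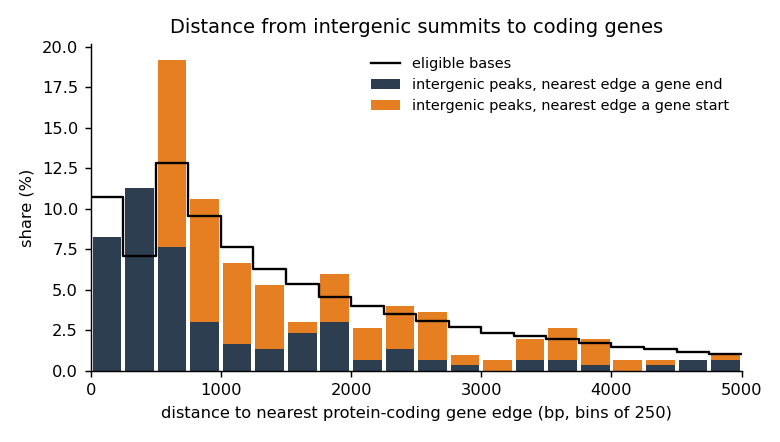
Share of the intergenic peaks by distance of the summit to the nearest edge of a protein-coding gene, in bins of 250 bp up to 5000 bp, stacked by whether that edge is a gene end or a gene start; the black line is the share of eligible bases. Peaks exceed eligible bases between 250 and 1000 bp, with 19.2% against 12.8% in the bin of 500 to 750 bp.

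The nearest gene of any class was protein-coding for 231 peaks, an ncRNA gene for 30, a pseudogene for 23, a piRNA gene for 8 and a lincRNA gene for 6. A tRNA gene was within 5000 bp of 8 peaks, and the median distance to the nearest one was 139666 bp. These counts were not made over eligible bases, and the rule itself removes summits near small RNA genes. They are therefore descriptions only. The coding genes on either side of the peaks numbered 506 different genes, and 80 of these flanked 2 or more peaks. Of the 603 flanking positions, 13 (2.16%, interval 1.15 to 3.66) were held by chemoreceptor genes, against 5.43% over eligible bases. Nuclear hormone receptor genes held 4 (0.663%, interval 0.181 to 1.69, against 2.06%), and F-box genes held 3 (0.498%, interval 0.103 to 1.45, against 1.32%). Collagen genes, taken with the other cuticle gene names dpy, rol, sqt and bli, held 8 (1.33%, interval 0.574 to 2.60), above the 0.850% of eligible bases but within the error. C-type lectin genes held 5 (0.829%, against 0.890%), homeobox genes of the ceh name 2 (0.332%, against 0.477%), major sperm protein genes 1 (0.166%, against 0.156%) and ribosomal protein genes 1 (0.166%, against 0.231%), with intervals that include the eligible share. Cytochrome P450, UDP-glucuronosyltransferase, MATH or BTB and histone genes held 0 of the 603, against 0.160 to 0.514% over eligible bases, and a count of 0 allows up to 0.610%. These families were taken by gene name prefix, and the positions are not independent where peaks share a gene. The eligible shares were pooled over the autosomes, whereas peaks per Mb of eligible bases ranged from 10.8 on V to 26.4 on I. They were not matched by chromosome, and the part of that spread in these shares was not tested.

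The chromosome arms held more of the intergenic peaks than their share of eligible bases. With the centre set as the middle 33.3% of each chromosome, 224 of the 302 peaks lay in the arms (74.2%, interval 68.8 to 79.0), against 66.3% of eligible bases. Without the peaks in arrays and families the share was 70.4% (interval 63.9 to 76.2), which includes the eligible share. That eligible share still counts bases in repeats, so the comparison is not a matched one. Of eligible bases in windows at least 50% masked, 75.8% lay in the arms, and of those with no masked base 60.5%. No eligible share without arrays and families was computed. Over all 302 peaks there were 20.2 peaks per Mb of eligible bases in the arms and 13.8 in the centres, a ratio of 1.46. The density was higher in the arms on each of the 5 autosomes, with ratios of 1.52 on chromosome I, 1.27 on II, 1.34 on III, 2.43 on IV and 1.13 on V. Of the other autosomal peaks, 65.4% lay in the arms, and the classes differed, with 79.6% of gene body peaks, 61.4% of promoter peaks and 55.0% of small RNA peaks there. The signal was alike in both places, with medians of 118 (interval 114 to 123) in the arms and 120 (110 to 131) in the centres. Of the 50 strongest peaks 34 lay in the arms, and the 3 strongest of all did not.

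The autosomes themselves differed. Chromosomes I and III held 26.4 and 25.4 intergenic peaks per Mb of eligible bases, II held 18.1, IV held 14.7 and V held 10.8. In counts these were 74 peaks on I, 62 on II, 70 on III, 48 on IV and 48 on V. The share of intergenic peaks among all peaks of a chromosome varied less, from 15% on V to 18.0% on II, so the other peaks were spread over the autosomes in a like way. Median signals ran from 114 on I and V to 124 on II, with overlapping intervals.

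**Figure D5:**
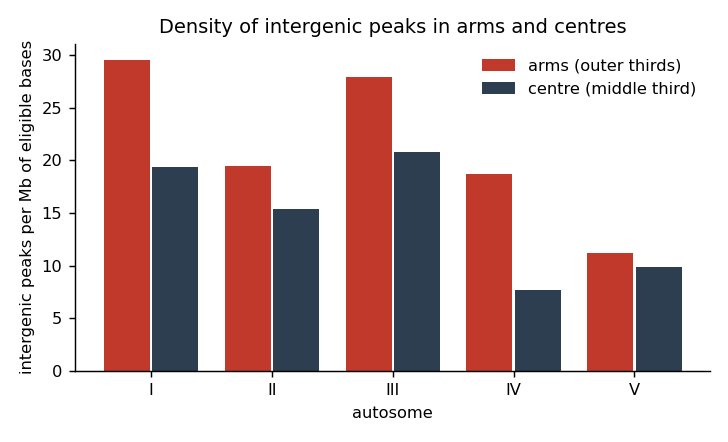
Intergenic peaks per Mb of eligible bases in the arms (red) and in the centre (dark) of each autosome, where the centre is the middle part of the chromosome. The bars for the arms are higher on each autosome, by 1.13 times on V and 2.43 times on IV.

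Masked repeats were not enriched among the intergenic peaks against intergenic DNA, but satellites were more frequent. In the window of 50 bp to either side of the summit, at least 50% of bases were masked as repeats in the RefSeq genome for 100 peaks (33.1%, interval 27.8 to 38.7), against 40% of eligible bases and 16.4% of the other autosomal peaks. Those classes differed, with 27.4% of gene body peaks (interval 23.4 to 31.6), 16.7% of promoter peaks and 3.18% of small RNA peaks. No base was masked for 87 peaks (28.8%, interval 23.8 to 34.3), against 14.1% of eligible bases and 34.1% of the other autosomal peaks. The arms are richer in repeats, and the masked share was 45.8% over eligible bases in the arms and 28.7% in the centres. Among the intergenic peaks it was 37.1% in the arms and 21.8% in the centres. Peaks with no masked base lay in the arms in 65.5% of cases (interval 54.6 to 75.4), against 60.5% of unmasked eligible bases, and peaks that were at least 50% masked in 83.0% (interval 74.2 to 89.8), against 75.8% of such eligible bases. Both of these intervals include the eligible share. Partly masked peaks, the 115 between, lay in the arms in 73.0% of cases (interval 64.0 to 80.9), against 59.7% of partly masked eligible bases, which is below the interval. Words of 24 bases that occur more than once in the genome covered at least 50% of the window for 117 peaks (38.7%, interval 33.2 to 44.5), against 25% of eligible bases and 22.0% of the other autosomal peaks. By class the latter share was 32.3% of small RNA peaks, 28.2% of gene body peaks and 10.3% of promoter peaks.

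The windows were also richer in G and C than intergenic DNA. The median GC content was 46.0% over the intergenic peaks (interval 45.5 to 47.5), against 33.7% over eligible bases and 49.5% over the other autosomal peaks. AT-rich words were rarer. TATAAA lay within 50 bp of the summit of 7 peaks (2.32%), against 12.4% of eligible bases and 3.95% of the other autosomal peaks. A run of 8 T on either strand lay near 10 (3.31%), against 14.2% and 5.15%. The word GAGAGAGA lay near 20 peaks (6.62%, interval 4.09 to 10), against 0.901% of eligible bases and 3.01% of the other autosomal peaks. The E-box CACGTG lay near 6 (1.99%), against 1.43%, a difference within the interval of 0.733 to 4.27. The part of base composition in these shares was not tested.

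Satellites were the clearest class by sequence. A tandem array was called where at least 80% of bases in the 201 bp around the summit equalled the base 1 period away, for a period from 10 to 60 bp. By this measure 25 intergenic peaks (8.28%, interval 5.43 to 12) lay in arrays, against 1.76% of eligible bases and 15 of the other 1495 autosomal peaks (1.00%). Of those 15, 12 were gene body peaks (2.53% of that class, interval 1.31 to 4.37). The 25 intergenic peaks in arrays had a median signal of 141 (interval 116 to 297), against 109 (105 to 117) in masked sequence outside arrays and 121 (116 to 127) over the rest, so the first interval overlapped the others. Of the 50 strongest peaks 9 (18.0%) were in arrays, and of the 252 others 16 (6.35%). The nearest coding edge was a gene end for 21 of the 25 (84.0%, interval 63.9 to 95.5), against 54.1% of eligible bases in arrays and 42.2% of the intergenic peaks outside arrays. Several of the 25 share an array, with 3 peaks at pqn-21 alone, so they count fewer separate sites. In the arms lay 21 of the 25, against 71.3% of eligible bases in arrays, within the interval of 63.9 to 95.5. The share of reads that map to such repeats, and how multiply mapping reads were treated, are not given in the sources used here, and their part in these signals was not tested.

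Of the 25, 6 had a period of 25 bp, with signals of 141 to 503, and 4 one of 26 bp, with signals of 118 to 879. The 9 peaks with the word AGTAAAATATA formed 1 family, found on 4 autosomes. Their signals ran from 116 through a median of 366 to 503, and 6 of the 9 were in both single-replicate lists. Replicate 1 had 42.6 to 244 in them and replicate 2 had 78.6 to 340, and the ratio of replicate 2 to replicate 1 ran from 1.10 through a median of 1.84 to 3.00. That median was above the 1.15 (interval 1.10 to 1.20) of the peaks outside arrays and mostly masked sequence. The word occurs 1349 times in the genome, and of its 671 eligible copies 32 (4.77%) lay in a peak of the conservative list, against 0.595% of all eligible bases. It was in 15 peaks of that list, of which 9 were intergenic, 3 gene body peaks, 2 on X and 1 a promoter peak. The word CTAACTTTGGA, part of a 26-bp unit, defined another family of 4 peaks on 3 autosomes, from 116 to 879, and 20 of its 312 eligible copies (6.41%) lay in peaks. Of these 4 peaks 3 were in called arrays, and the weakest was not. These words were chosen from the peaks themselves, so their shares in peaks are descriptions.

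Sequence shared between peaks went beyond satellites. Families were built from peaks that share at least 6 words of 14 bases in 201 bp, with at least 4 peaks each. There were 9 such families with 63 peaks, and 99 of the 302 peaks shared sequence with another one. The family with ACGAAAAGGGG had 9 peaks on all 5 autosomes, all of them mostly masked, with signals from 90.6 through a median of 128 to 404. Peak 8 near eel-1 had 163 in replicate 1 and 293 in replicate 2, and peak 13 near Y62F5A.9 had 153 and 229. The word occurs 407 times in the nuclear genome, and 131 of these copies (32.2%) lay in 36 peaks of the conservative list, 18 of them promoter peaks, 8 gene body peaks, 1 a small RNA peak and 9 intergenic. Of its 77 eligible copies 32 (41.6%) lay in peaks. Several copies often stand side by side, so copies are not separate sites. As with the satellites, this word and those of the families below were chosen from the peaks, so their shares in peaks are descriptions.

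A family of 9 peaks on all 5 autosomes resembled tRNA genes. It comprised peaks 10, 17, 28, 54, 57, 104, 106, 255 and 256, with signals from 97.9 through a median of 161 to 396, and 3 of them were mostly masked. Its word CGCATGGCCGA runs into the A box word GGCNNAGTG, which 8 of the 9 carry as GGCCGAGTG. On the same strand, 6 of the 9 had a word with at most 1 mismatch to the B box word, and its start lay 44 bp after the start of the A box word in 5 of them and 43 bp in 1. These words were GCTCGATTC in 4 peaks and GTTCAATTC in 2. Among the 612 annotated nuclear tRNA genes, 40 had both exact words in that order, and in 16 of these they were 43 bp apart, in 0 of them 44 bp. The 6 B-box-like words of the family each have 1 mismatch, so these spacings were taken at unlike thresholds. The other tRNA genes were not measured. None of the 59 genome copies of the family's word (0 of 59) lay in an annotated tRNA gene, and of its 25 eligible copies 8 (32.0%) lay in peaks, with 5 further peaks in gene bodies and 3 on X. The word was taken from these peaks, which the rule keeps away from tRNA genes. Among equally common words it was the one with the fewest genome copies, so both counts are descriptions. Peak 10, the strongest, had 180 in replicate 1 and 216 in replicate 2, and peak 256, the weakest, had 41.0 and 63.6.

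The exact B box word was rare in intergenic peaks. It lay within 50 bp of 2 summits (0.662%, interval 0.0803 to 2.37), against 0.241% of eligible bases and 8.56% of small RNA peaks. Both were copies of 1 sequence, with a shared run of 90 bp. Peak 56, at chrIII:9849151-9849494 and 1207 bp upstream of the mitochondrial ribosomal protein gene mrpl-36, had a signal of 161 (96.6 in replicate 1 and 83.3 in replicate 2). Peak 169, at chrIV:13504111-13504454 and 987 bp beyond the end of the neuropeptide gene nlp-17, had one of 114 (67.6 and 59.1). In each the B box word started 43 bp after an A box word GGCGCAGTG on the same strand. The middle 24 bp of the shared run occur 4 times in the genome, 0 of them in annotated tRNA genes and 3 in conservative peaks. This stretch, too, was taken from the peaks. The A box word lay within 50 bp of 13 intergenic summits (4.30%, interval 2.31 to 7.25), against 0.489% of eligible bases and 3.88% of the other autosomal peaks. Of these 13 peaks, 8 belonged to the tRNA-like family and 2 to the family of ACGAAAAGGGG, so most were copies of few sequences.

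The other families had at most 8 peaks each. The family with AAATCGGCAAA had 8 peaks, all mostly masked and all in the arms of chromosomes I and V, with signals of 94.1 to 159. Its word occurs 6656 times in the genome, and 29 of its 1934 eligible copies (1.50%) lay in peaks. Over the whole conservative list the word was in 41 peaks, of which 24 were gene body peaks and 10 intergenic. The family with GGGGTACTGTA, a word found in 6 of its 7 peaks, had signals of 90.7 to 206, with all 7 mostly masked, and 0 of these or of the 8 were in both single-replicate lists. Counted over whole peaks of the conservative list, GGGGTACTGTA was in 23 peaks, 12 of them gene body peaks and 7 intergenic. A pair of families stood apart in that none of their peaks was mostly masked (0 of 7 and 0 of 6). One had 7 peaks of 123 to 339, including peak 15 near vps-39, and its commonest word, GCGCGCATTCA, was in 4 of the 7. Its median signal was 180, and 4 of the 7 were in both single-replicate lists. The other had 6 peaks of 107 to 263, including peak 18 near rpa-2, and its word ACGGCCCGGCG was in 5 of the 6. Its median signal was 142, and 3 of the 6 were in both single-replicate lists. All 13 of these lay in the arms, and their words occur 32 and 30 times in the genome. Of the eligible copies, 4 of 11 (36.4%) and 5 of 14 (35.7%) lay in peaks. The family with CCGCCGGTTCA was local, with 4 peaks of 19.0 to 186 within 5754 bp on chromosome II between Y51H7C.12 and Y51H7C.13.

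Most intergenic peaks stood alone. The nearest other intergenic peak was a median of 48122 bp away, and 64 of the 302 had one within 2000 bp. A peak of another class was within 2000 bp of 29, with a median distance of 16824 bp. Groups of at least 3 peaks, each within 5000 bp of the next, were found at 5 places. They lay near marc-4 (3 peaks, 15.6 to 127), at pqn-21 (3 peaks, 144 to 423), at the local family on chromosome II, near mrpl-51 and sqst-1 (3 peaks, 8.98 to 121) and near somi-1 (4 peaks, 40.5 to 116). The lowest value belongs to a peak that overlaps a stronger neighbour in each of these groups but the one at pqn-21, where no peaks overlap.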

How the data were processed

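The files were peak lists made by the authors on ce11, the build named in the labels: a thresholded and a ranked list for each replicate and for both combined. Thresholds were set on the irreproducible discovery rate (IDR). The aligner, peak caller and read depth are not given in the sources used here. The signal (column 7) and the score (column 5) of a peak are as deposited by the authors, and the summit offset (column 10) deposited by the authors gave the summit. Signals of a replicate came from the strongest overlapping region in its ranked list.

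Genes came from Ensembl release 115 (WBcel235, the assembly of ce11) and sequence and masking from the RefSeq copy of that assembly. Python 3.11.15, numpy 2.4.6, pandas 2.3.3, scipy 1.17.1 and networkx 3.6.1 were used, and the measures were tested on simulated data. Shares carry exact Clopper-Pearson and medians order-statistic 95% intervals, which cover counting error only. With 1 group there was no test between conditions. Words were searched on both strands within 50 bp of the summit. The named peaks are the 15 strongest, the 2 strongest per autosome and those with the B box word; others, such as family members, were named after their values were seen. The members and lists were chosen with earlier results of these data known. Alternatives were other lists, each single replicate's list, the 500 strongest peaks, and other promoter, gene, arm, overlap, word and repeat definitions. Leaving out arrays and families was added after seeing the data.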

Additional observations from a re-analysis of the deposited data

How the results depend on the processing

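The 7 results were the share of autosomal peaks that are intergenic (16.8%), their shares in the arms (74.2%), on the start side (54.3%), in both single-replicate lists (17.5%), with the B box word (0.662%) and mostly masked (33.1%), and the ratio of median signals (0.915). Of the recomputed values 41 moved by less than the error and 23 moved further. With a single replicate's list in place of the combined one, the intergenic share was 12.2 to 12.9% and the signal ratio 0.826 to 0.835. The share in both lists was then 47.2 to 60.9%, but every peak of such a list overlaps its own list by design. These values count overlap with the other replicate's list only and cannot be set against the 17.5%. Among the 500 strongest autosomal peaks 9.60% were intergenic, of which 68.8% lay in the arms, 87.5% were in both lists, 0% had the B box word and 41.7% were masked. The intergenic share was 11.7% with promoters of 1000 bp, 13.6% when the whole peak had to meet the rule, 19.6% with coding genes only and 13.1% without arrays and families. The start-side share turned from a majority to a minority, at 45.7% with promoters of 1000 bp and 45.4% (46.6% of eligible bases) with genes of any class. Wider promoters remove positions upstream of gene starts from peaks and eligible bases alike, so that rule itself lowers the share. No eligible share was computed with promoters of 1000 bp, so the 45.7% cannot be read as a change in where the peaks lie. With the centre widened to the middle 50%, 56.3% lay in the arms, against 49.2% of eligible bases. Regions of both ranked lists overlapped 98.7%, against 99.2% of all autosomal peaks. The long ranked lists cover nearly every peak, so this overlap says little about support. With 1 mismatch the B box word lay near 7.28%, against 4.64% of eligible bases. Repeats turned direction against eligible bases by repeated words, with 38.7% above their 25%, where the masked share lay below their 40%. They covered 71.2% by any masked base (85.9% of eligible bases) and 19.0% without arrays and families. All peaks in arrays were mostly masked, so leaving out arrays and families lowers the masked share by design. No eligible share was computed beside the 19.0%. Without arrays and families 70.4% lay in the arms (interval 63.9 to 76.2), which includes the 66.3% of eligible bases, a share that still counts bases in repeats. No paired analysis was possible because there is 1 group. Depth is unknown, no untagged sample was used, and 2 replicates limit how far weak peaks can be checked.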
